A study of Homo sapiens with 6 samples.

Results

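The genes described here encode respiratory complexes II, III, IV and V, cytochrome c and assembly factors of complex IV. They were taken from a list of 46 genes, and every probe of the non-normalized signal table whose platform symbol, current or older, named a listed gene was a member probe. Of the 46 genes, 44 had at least 1 probe, with 65 probes among the 47225 of the table, and 63 of those probes passed the detection filter. All 44 were above background on every array and were tested, among 10470 genes tested in all. SDHB, the iron-sulfur protein of complex II, and UQCRFS1, the Rieske protein of complex III, were not analysed here.

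RNA came from HCT116, a long-established line of human colorectal carcinoma cells, and was measured on 6 Illumina BeadChip arrays of 1 chip. The 3 shTCF7L1 arrays held RNA of HCT116 cells with a short hairpin RNA (shRNA) against TCF7L1, a transcription factor of the TCF/LEF family that acts in Wnt signalling. The 3 shCtrl arrays held RNA of HCT116 cells with a control hairpin. The series calls the replicates biological. Whether the cells were clones or pools, and how long the hairpins had been expressed, is not given in the sources used here.

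Mean bead signal per array lay between 162 and 177, and 34.0% to 36.8% of the probes were detected, at a detection p below 0.01. Arrays of the same group correlated at 0.971 to 0.975 over the kept probes, and arrays of different groups at 0.942 to 0.948. The 3 arrays of a group lay side by side on the chip, so position and group cannot be told apart. The probe for TCF7L1 had signals of 29.3, 32.4 and 25.4 units in shTCF7L1 cells, against 45.1, 35.8 and 40.6 units in shCtrl cells. It was detected on 0 of 3 shTCF7L1 arrays and 2 of 3 shCtrl arrays, which put it outside the kept probes, so no fold or test is given for it. Of 7 colon epithelial markers 6 were detected on every array, with a summed signal of 7156 to 9719 units in shTCF7L1 cells and 7921 to 9913 units in shCtrl cells, and VIL1 on none. Of these, KRT8 was lower in shTCF7L1 cells (log2 difference -0.82, limma adjusted p = 0.0305). CDH1 (-0.53, adjusted p = 0.0777) and KRT18 (-0.37, adjusted p = 0.198) had groups that did not overlap, without passing the test. The groups did not overlap for 33.9% of all genes tested. EPCAM (0.42, adjusted p = 0.306), CDX2 (0.08, adjusted p = 0.827) and KRT19 (-0.02, adjusted p = 0.973) had overlapping groups and did not pass. The 6 fibroblast markers summed to 227 to 345 units in shTCF7L1 cells and 190 to 218 units in shCtrl cells. Among the fibroblast markers COL1A1 was higher in shTCF7L1 cells (log2 difference 1.14, adjusted p = 0.0116). COL1A1 was detected on 6 arrays, COL3A1 and DCN on 1 each, and COL1A2, LUM and PDGFRB on 0. The 7 leukocyte and endothelial markers summed to 267 to 329 units in shTCF7L1 cells and 256 to 341 units in shCtrl cells. CD68 was detected on 6 arrays, CD14 on 3 and VWF on 1, and PTPRC, CD3E, PECAM1 and CDH5 on 0. Neither CD68 (log2 difference -0.15, limma adjusted p = 0.742) nor CD14 (0.41, adjusted p = 0.274) passed the test. The part of these markers in the results below was not tested.

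The respiratory chain passes electrons from nutrients to oxygen across the inner mitochondrial membrane. Complex II (succinate dehydrogenase) takes them from succinate, complex III (the cytochrome bc1 complex) hands them from ubiquinol to cytochrome c, and complex IV (cytochrome c oxidase) hands them to oxygen. Complexes III and IV pump protons while they do so, and complex V (ATP synthase) lets the protons flow back to make ATP. The subunits considered here are encoded in the nucleus, and complex IV needs dedicated factors that insert its heme and copper.

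Most of these genes did not pass the test between shTCF7L1 and shCtrl cells, which does not show that they were unchanged. Those that passed were mostly lower. UQCR11 of complex III, COX5B of complex IV, the complex IV assembly factors COX15 and COX17, and ATP5MF of complex V fell, and ATP5F1D of complex V rose. The 5 falls lay between 1.64-fold and 2.12-fold, and the rise was 1.64-fold. The share that passed, 13.6%, was near the 15% of all genes tested. Only UQCR11 still passed whichever 1 array was left out. A second probe of ATP5F1D did not rise (log2 difference -0.16). Every complex had more genes that did not pass the test than genes that did. In bulk RNA of this kind, fewer cells with a transcript and less of it per cell cannot be told apart.

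Levels are given as log2 of the background-corrected, quantile-normalized signal, and differences as shTCF7L1 minus shCtrl on that scale. A gene counted as called when its limma adjusted p lay below 0.05, with Benjamini-Hochberg adjustment over the 10470 genes. By that rule 6 of the 44 genes (13.6%) were called, against 15% of all genes tested. In shTCF7L1 cells 1 of the 44 was higher and 5 were lower, where all genes had 7.85% higher and 7.11% lower. An unadjusted p below 0.05 was found for 10 of the 44 genes and for 29.8% of all genes. Of the 44 genes 35 belonged to the 2618 brightest genes, in which 13.1% were called (6.76% higher and 6.38% lower). The share of called genes among the 44 was therefore near that of all genes and of bright genes.

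The differences below 0 were more frequent than those above it. Of the 44 genes 31 (70.5%) had a value below 0 and 13 a value above, whereas 48% of all genes tested were below 0. The median difference was -0.20 for the 44 genes and 0.02 for all genes. An absolute difference under 0.5 was found for 34 of the 44 genes (77.3%) and for 73.5% of all genes. The 3 shTCF7L1 arrays and the 3 shCtrl arrays did not overlap for 12 of the 44, of which 4 were higher and 8 lower in shTCF7L1 cells, and for 33.9% of all genes (18.1% higher, 15.8% lower). Over 17 other ways of processing or leaving out arrays, the median of the 44 genes lay between -0.28 and -0.13, and 29 to 36 of them were below 0.

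**Figure D1:**
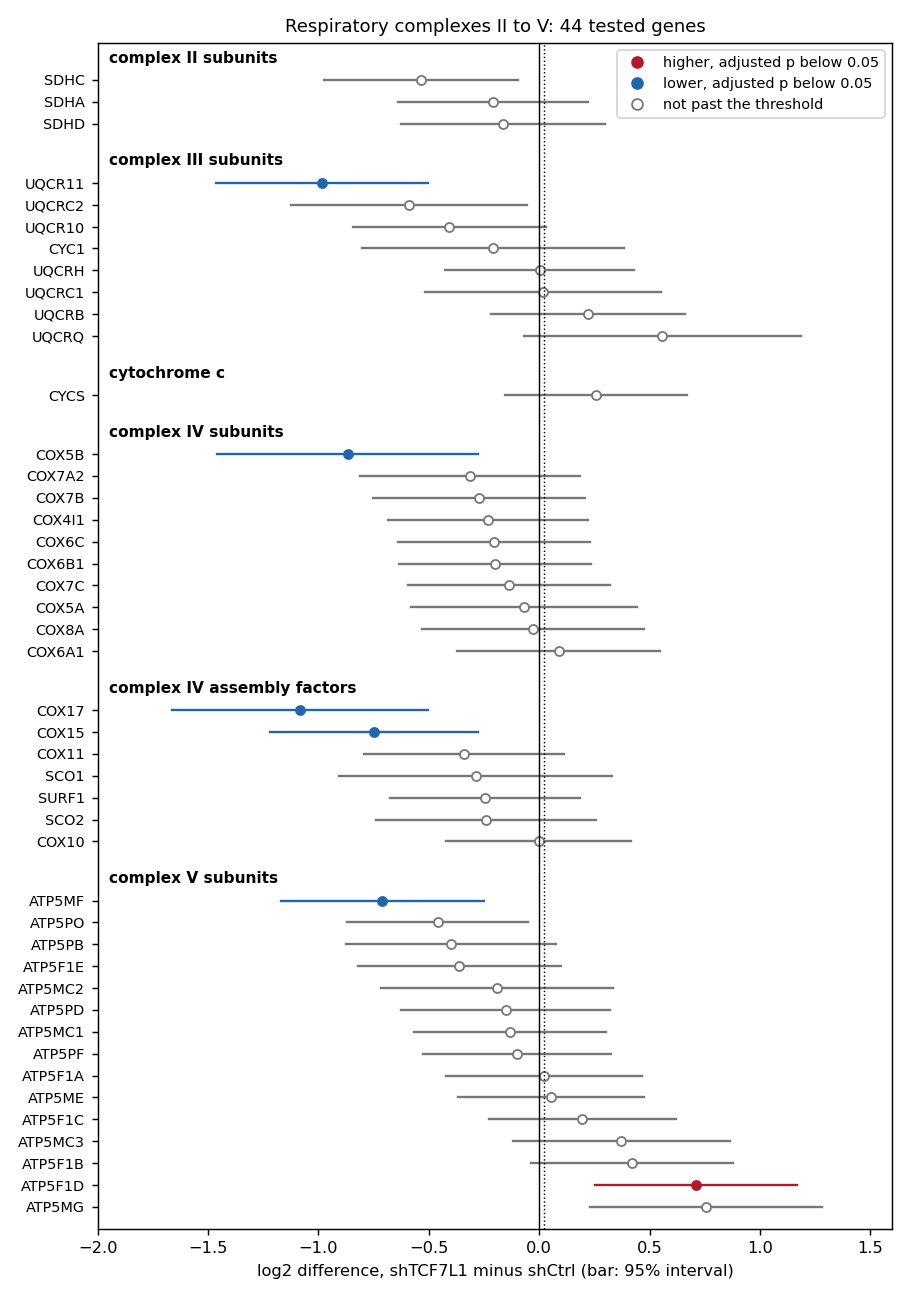
Log2 difference (shTCF7L1 minus shCtrl, horizontal axis) of each of the 44 tested genes, with its 95% confidence interval from limma, grouped by complex; the dotted line is the median of all genes tested (0.02). Filled colours mark the 6 called genes: ATP5F1D lies to the right of 0, and UQCR11, COX5B, COX15, COX17 and ATP5MF lie to the left.

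Set beside each other, the complexes had medians below 0. Over all genes tested the median was 0.02, 48% were below 0, 7.11% were called lower and 7.85% were called higher. The median was -0.29 for the assembly factors of complex IV (7 of 7 genes below 0, 2 called lower). It was -0.21 for complex II (3 of 3 genes below 0, none called), and it was -0.20 for the subunits of complex IV (9 of 10 below 0, 1 called lower). Complexes III and V were mixed: 4 of 8 genes of complex III were below 0 (median -0.10, 1 called lower), as were 8 of 15 of complex V (median -0.10, 1 called higher and 1 lower). The order of these medians was not stable. Without shCtrl replicate 1 the median was -0.17 for the assembly factors and -0.36 for complex II, and without shCtrl replicate 3 it was -0.43 for the assembly factors and -0.11 for complex II. The median of complex IV subunits was -0.13 without shCtrl replicate 2. No test of one complex against another was made, and the genes of a complex are not replicates.

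Averaged over its genes, each complex can be followed array by array as a mean deviation from each gene's mean over the 6 arrays. Complex IV assembly factors deviated by -0.23, -0.19 and -0.21 log2 units on shTCF7L1 arrays, against 0.35, 0.27 and 0.01 on shCtrl arrays. Complex IV subunits deviated by -0.11, -0.01 and -0.22 on shTCF7L1 arrays, against 0.10, 0.12 and 0.11 on shCtrl arrays. By these means every shTCF7L1 array lay below every shCtrl array in both groups of genes. By the median deviation the same held for the subunits, but the assembly factors overlapped, at -0.21, -0.12 and 0.042 on shTCF7L1 arrays against 0.36, 0.25 and -0.022 on shCtrl arrays. Complex II deviated by -0.14, -0.14 and -0.17 on shTCF7L1 arrays and -0.07, 0.32 and 0.21 on shCtrl arrays, without overlap, whereas its median deviations overlapped, at -0.18, -0.11 and -0.058 on shTCF7L1 arrays against -0.17, 0.21 and 0.22 on shCtrl arrays. Complex III deviated by -0.21, -0.07 and 0.02 on shTCF7L1 arrays and 0.14, 0.16 and -0.04 on shCtrl arrays, and complex V by -0.15, 0.08 and 0.06 on shTCF7L1 arrays and 0.01, -0.04 and 0.03 on shCtrl arrays. For these last complexes the groups overlapped. The sign of their medians depended on single arrays. The complex III median was 0.075 without shCtrl replicate 1 and -0.31 without shCtrl replicate 3. The complex V median was 0.0080 without shCtrl replicate 3 and 0.0044 without shTCF7L1 replicate 1.

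**Figure D2:**
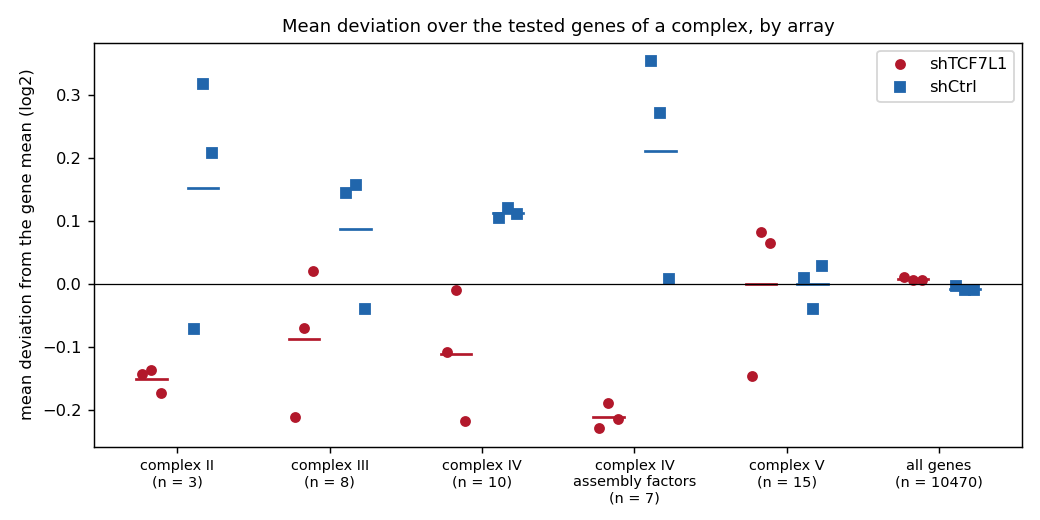
Mean deviation (log2 units, vertical axis) of the genes of each complex from their own means over the 6 arrays, 1 point per array, with shTCF7L1 left of shCtrl, short lines for group means and all genes tested at the right. By these means the groups are apart for complex II, complex IV subunits and complex IV assembly factors, and overlap for complexes III and V; by medians complex II and the assembly factors overlap too.

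Complex II showed no called gene. SDHA, the flavoprotein that oxidizes succinate, was at 8.76, 8.83 and 8.92 in shTCF7L1 cells, against 8.75, 9.15 and 9.24 in shCtrl cells (log2 difference -0.21, 95% interval -0.64 to 0.22, adjusted p = 0.532). Its groups overlapped. SDHC, a membrane anchor that helps hold the heme and bind ubiquinone, was at 7.77, 7.88 and 8.14 in shTCF7L1 cells, against 8.34, 8.75 and 8.30 in shCtrl cells. Every shTCF7L1 array was below every shCtrl array, but the difference of -0.53 (95% interval -0.97 to -0.10, unadjusted p = 0.0201) did not pass after adjustment (adjusted p = 0.0935), nor under any of the 17 alternatives. SDHD, the other anchor, was at 9.15, 8.99 and 8.53 in shTCF7L1 cells, against 8.81, 9.16 and 9.20 in shCtrl cells (log2 difference -0.16, adjusted p = 0.662), and its groups overlapped.

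In complex III the fall of UQCR11 was the only call. UQCR11, a small membrane subunit, was at 5.76, 6.30 and 5.50 in shTCF7L1 cells, against 7.02, 6.66 and 6.83 in shCtrl cells. Each shTCF7L1 array was below each shCtrl array. Its means were 5.85 ± 0.40 in shTCF7L1 cells and 6.84 ± 0.18 in shCtrl cells (SD, n = 3 each). The log2 difference was -0.98 ± 0.23 (SE, adjusted p = 0.00866) or 1.98-fold lower. The call held when any 1 array was left out and was lost in 1 of the 17 alternatives, with no detection filter (adjusted p = 0.0514). At the other end of the complex, UQCRQ, a small subunit close to cytochrome b, was at 12.25, 12.00 and 12.52 in shTCF7L1 cells, against 10.85, 11.96 and 12.30 in shCtrl cells. The groups overlapped, and the value of 0.56 (95% interval -0.07 to 1.18, adjusted p = 0.223) was 0.13 without shCtrl replicate 1.

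The core and redox subunits of complex III were not called. UQCRC2, a core protein, was at 7.95, 8.14 and 9.06 in shTCF7L1 cells, against 8.93, 9.02 and 8.97 in shCtrl cells. Replicate 3 of shTCF7L1 was above all shCtrl arrays and the other 2 replicates were below them (log2 difference -0.59, adjusted p = 0.127). Without that array the difference was -0.93 with an adjusted p of 0.0141. UQCRC1, the other core protein, had a value of 0.02 (adjusted p = 0.974), and CYC1, the cytochrome c1 that donates electrons to cytochrome c, had -0.21 (adjusted p = 0.665). UQCRH, the hinge protein between cytochromes c1 and c, had 0.00 (adjusted p = 0.995), and UQCRB, which binds ubiquinone, had 0.22 (adjusted p = 0.515).

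UQCR10, a small subunit that contacts cytochrome c1, gave different answers from different probes. Its brightest probe, ILMN_1781986, was at 7.92, 8.14 and 8.13 in shTCF7L1 cells, against 8.70, 8.55 and 8.16 in shCtrl cells (log2 difference -0.41 ± 0.21 (SE), adjusted p = 0.202). A second probe, ILMN_2366710, was at 7.87, 7.62 and 7.61 in shTCF7L1 cells, against 6.92, 6.54 and 6.18 in shCtrl cells. On the second probe every shTCF7L1 array was above every shCtrl array, and on the first every one was below. In a fit over all 16835 kept probes, in which 13% of the probes were called, the second probe was higher by 1.15 ± 0.22 (SE, adjusted p = 0.00317), or 2.22-fold, and stayed called without any 1 array (0.97 to 1.34). The third probe, ILMN_2366714, had 0.56 (adjusted p = 0.0901). The platform annotation places the last 2 probes on one transcript record of UQCR10 and the brightest probe on another. The mean of the 3 probes was 0.44 higher in shTCF7L1 cells, so the sign of the UQCR10 difference depended on the probe.

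Cytochrome c, the soluble carrier between complexes III and IV encoded by CYCS, was at 5.92, 6.23 and 5.96 in shTCF7L1 cells, against 5.70, 5.78 and 5.86 in shCtrl cells. Every shTCF7L1 array was above every shCtrl array, by a margin that did not pass the test (log2 difference 0.26, 95% interval -0.15 to 0.67, adjusted p = 0.402).

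Among the subunits of complex IV only COX5B was called. COX5B, a peripheral subunit that binds zinc, was at 10.28, 11.65 and 10.57 in shTCF7L1 cells, against 11.76, 11.68 and 11.67 in shCtrl cells. The shCtrl arrays lay close together, and the second shTCF7L1 array lay just below them while the other 2 were far below. Its means were 10.84 ± 0.72 in shTCF7L1 cells and 11.70 ± 0.05 in shCtrl cells (SD, n = 3 each). The log2 difference was -0.87 ± 0.28 (SE, adjusted p = 0.0465) or 1.82-fold lower. The call stood at the threshold. It held in 7 of 17 alternatives, and of the 6 fits that left out 1 array it held only in that without shTCF7L1 replicate 2 (-1.28, adjusted p = 0.00398). The other 5 gave adjusted p of 0.114, 0.101 and 0.106 without shCtrl replicates 1, 2 and 3, 0.199 without shTCF7L1 replicate 1 and 0.144 without shTCF7L1 replicate 3.

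The other 9 subunits of complex IV did not pass. COX6A1, a subunit next to the dimer interface, was the only one above 0. It was at 10.94, 10.64 and 10.20 in shTCF7L1 cells, against 10.37, 10.55 and 10.60 in shCtrl cells, with overlapping groups (log2 difference 0.09, 95% interval -0.37 to 0.55, adjusted p = 0.830). COX4I1 and COX5A, which sit at the regulatory face toward the matrix, had -0.23 and -0.07. COX6B1, which faces the intermembrane space, had -0.20, and COX6C had -0.20. The small membrane subunits COX7A2, COX7B, COX7C and COX8A had -0.31, -0.27, -0.14 and -0.03. The adjusted p-values of these 8 genes lay between 0.401 and 0.954.

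The 7 assembly factors of complex IV held 2 of the 5 lowered genes, where 7.11% of all genes tested were called lower. COX17, the copper chaperone that feeds both copper sites, was at 10.40, 10.46 and 9.25 in shTCF7L1 cells, against 11.23, 11.19 and 10.93 in shCtrl cells. Every shTCF7L1 array was below every shCtrl array, and replicate 3 of shTCF7L1 was the lowest. Its means were 10.04 ± 0.68 in shTCF7L1 cells and 11.12 ± 0.16 in shCtrl cells (SD, n = 3 each). The log2 difference was -1.08 ± 0.27 (SE, adjusted p = 0.0148) or 2.12-fold lower, the largest difference among the 44 genes when each is read by its brightest probe. Without shTCF7L1 replicate 3 it was -0.69 (adjusted p = 0.0539), and without shCtrl replicate 1 or 2 the adjusted p was 0.0534 or 0.0527. COX15, which converts heme O to heme A, was at 7.22, 7.23 and 7.85 in shTCF7L1 cells, against 8.17, 7.98 and 8.39 in shCtrl cells. Here too the groups did not overlap. The log2 difference was -0.75 ± 0.22 (SE, adjusted p = 0.0319), or 1.68-fold lower, and a second COX15 probe had -0.69 (adjusted p = 0.056 over all probes). COX15 was called in 11 of 17 alternatives and lost its call without shCtrl replicate 1 (adjusted p = 0.077) or 3 (0.119) and without shTCF7L1 replicate 1 (0.113) or 2 (0.115).

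The remaining 5 assembly factors had values at or below 0 and did not pass. COX10, which makes heme O, the substrate of COX15, was at 8.10, 8.42 and 8.40 in shTCF7L1 cells, against 8.17, 8.47 and 8.29 in shCtrl cells. Those groups lay on top of each other (log2 difference -0.00, 95% interval -0.42 to 0.42, adjusted p = 0.994). Of the 2 enzymes of heme A synthesis, then, 1 was called, where 15% of all genes tested were called. Of the copper delivery proteins, SCO1 and SCO2, which pass copper to the site in subunit 2, had -0.29 and -0.24, and COX11, which serves the site in subunit 1, had -0.34. SURF1, which assists the early assembly of subunit 1, had -0.24. The adjusted p-values of these 4 genes lay between 0.302 and 0.553.

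Complex V held calls in both directions. ATP5F1D, the delta subunit of the central stalk, rose, and ATP5MF, a small membrane subunit, fell. ATP5F1D was at 10.73, 11.46 and 11.10 in shTCF7L1 cells, against 10.33, 10.51 and 10.33 in shCtrl cells, with every shTCF7L1 array above every shCtrl array. Its means were 11.10 ± 0.37 in shTCF7L1 cells and 10.39 ± 0.10 in shCtrl cells (SD, n = 3 each). The log2 difference was 0.71 ± 0.22 (SE, adjusted p = 0.0359) or 1.64-fold higher. A second ATP5F1D probe, ILMN_1679178, had -0.16 (adjusted p = 0.678 over all probes), and the mean of both probes had 0.28 (adjusted p = 0.343). The call held in 9 of 17 alternatives and was lost without shCtrl replicate 1 (0.0966), 2 (0.0656) or 3 (0.101) and without shTCF7L1 replicate 2 (0.147) or 3 (0.0765).

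ATP5MF was at 9.24, 9.87 and 9.91 in shTCF7L1 cells, against 10.47, 10.31 and 10.37 in shCtrl cells. Every shTCF7L1 array was below every shCtrl array. Its means were 9.67 ± 0.38 in shTCF7L1 cells and 10.38 ± 0.08 in shCtrl cells (SD, n = 3 each). The log2 difference was -0.71 ± 0.22 (SE, adjusted p = 0.0360) or 1.64-fold lower. A second ATP5MF probe had -0.26 (adjusted p = 0.437 over all probes). Its call held in 10 of 17 alternatives and was lost without shCtrl replicate 1 (0.103), 2 (0.0731) or 3 (0.0877) and without shTCF7L1 replicate 1 (0.149) or 2 (0.0510). ATP5MG, another small membrane subunit, was at 11.51, 11.51 and 11.74 in shTCF7L1 cells, against 10.76, 10.32 and 11.42 in shCtrl cells. Its groups did not overlap, and its value of 0.76 (95% interval 0.23 to 1.28) lay just outside the threshold (adjusted p = 0.0505), passing in 7 of 17 alternatives. ATP5ME, the third of these small subunits, had 0.05 (adjusted p = 0.894).

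**Figure D3:**
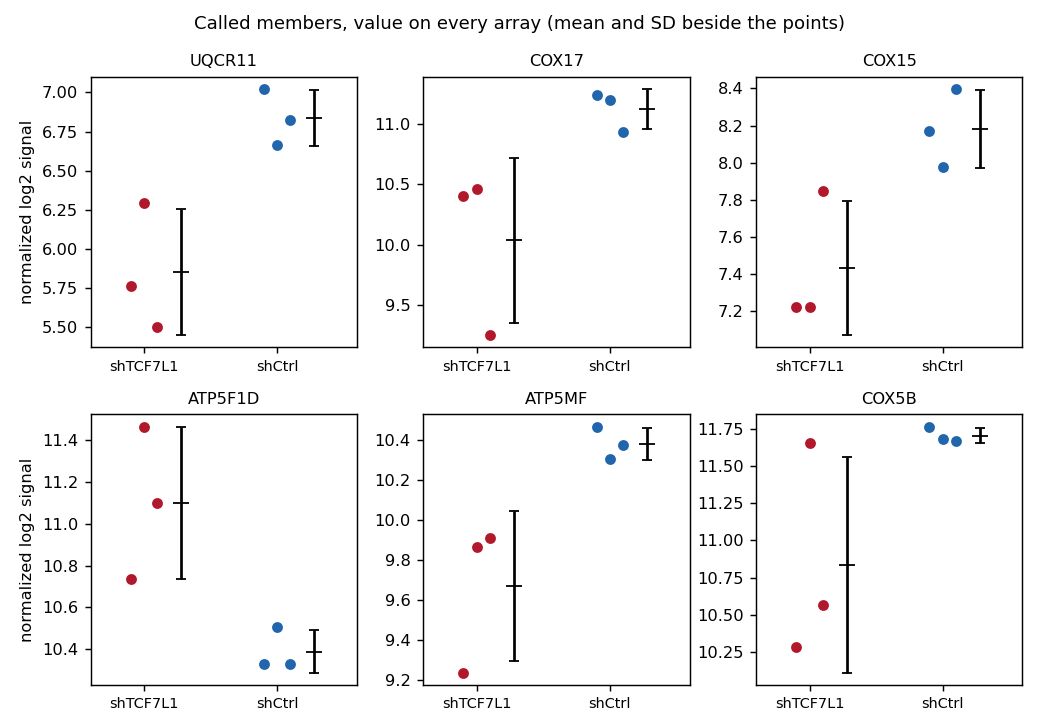
Normalized log2 level (vertical axis) of the 6 called genes on each array, with the mean and SD of each group beside the points and shTCF7L1 left of shCtrl. The groups do not overlap in any of the 6 panels, and the second shTCF7L1 array of COX5B lies just below the shCtrl arrays.

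The catalytic head and central stalk of complex V, called F1, had 4 of 5 genes above 0, where 5442 of all 10470 genes tested were above 0. The 4 include ATP5F1D, whose second probe had -0.16. ATP5F1B, the beta subunit that carries the catalytic sites, was at 13.09, 12.73 and 12.71 in shTCF7L1 cells, against 12.07, 12.57 and 12.64 in shCtrl cells. The groups did not overlap, and the difference of 0.42 did not pass (adjusted p = 0.205). ATP5F1A, the alpha subunit, had 0.02, and ATP5F1C, the gamma subunit that turns inside the head, had 0.20. ATP5F1E, the epsilon subunit, had -0.36. The adjusted p-values of these 3 genes lay between 0.278 and 0.961.

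The peripheral stalk, which holds the head still, had 4 of 4 genes below 0, where 48% of all genes tested were below 0. None was called by its brightest probe, and no test of the head against the stalk was made. ATP5PO, the subunit that confers oligomycin sensitivity, was at 10.77, 11.01 and 10.82 in shTCF7L1 cells, against 11.42, 11.22 and 11.34 in shCtrl cells. Every shTCF7L1 array was below every shCtrl array, without passing the test (log2 difference -0.46, adjusted p = 0.119). ATP5PB, the b subunit, had -0.40 (adjusted p = 0.245), ATP5PD had -0.15 (adjusted p = 0.696) and ATP5PF had -0.10 (adjusted p = 0.777). A second probe of ATP5PB, ILMN_1672191, was at 9.46, 9.71 and 8.54 in shTCF7L1 cells, against 10.16, 10.05 and 10.09 in shCtrl cells. In the fit over all kept probes it was called lower, at -0.86 ± 0.26 (SE, adjusted p = 0.0367), and -0.51 without shTCF7L1 replicate 3. That call was lost when any 1 array other than shTCF7L1 replicate 2 was left out (adjusted p up to 0.151).

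The c-ring, the rotor in the membrane that protons turn, is made of one protein encoded by 3 genes. ATP5MC1 was at 10.18, 10.20 and 9.80 in shTCF7L1 cells, against 10.06, 10.42 and 10.10 in shCtrl cells (log2 difference -0.13, adjusted p = 0.712). ATP5MC2 was at 9.97, 10.86 and 10.25 in shTCF7L1 cells, against 10.94, 10.30 and 10.42 in shCtrl cells (log2 difference -0.19, adjusted p = 0.654). ATP5MC3 was at 6.61, 6.84 and 6.77 in shTCF7L1 cells, against 6.56, 6.70 and 5.85 in shCtrl cells (log2 difference 0.37, adjusted p = 0.296). The groups overlapped for all 3 genes, which did not pass the test.

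Probes of one gene did not always tell the same story. Of the 63 kept member probes 7 (11.1%) were called in the fit over all probes, 2 higher and 5 lower in shTCF7L1 cells. Of the 16 genes with more than 1 kept probe, 12 had all probes on the same side of 0 and 4 did not: UQCRB, UQCR10, ATP5F1D and ATP5ME. Among the 12, ATP5MC2 had a dim second probe (-0.36), detected on 0 of 3 shTCF7L1 arrays and 3 of 3 shCtrl arrays. That probe passed the filter only through the shCtrl arrays, which favoured a value below 0, so its sign is no support. For UQCRB, whose brightest probe had 0.22, the other 2 probes had -0.18 and -0.17. The probe at -0.17 was near background, detected on 1 of 3 shTCF7L1 arrays and 3 of 3 shCtrl arrays. For ATP5ME the values of 0.05 and -0.13 were both near 0. The probes of UQCR10 spanned 1.56 log2 units and those of ATP5F1D 0.87, and no other gene spanned more than 0.5. Which transcripts or related gene copies each probe reads was not tested.

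**Figure D4:**
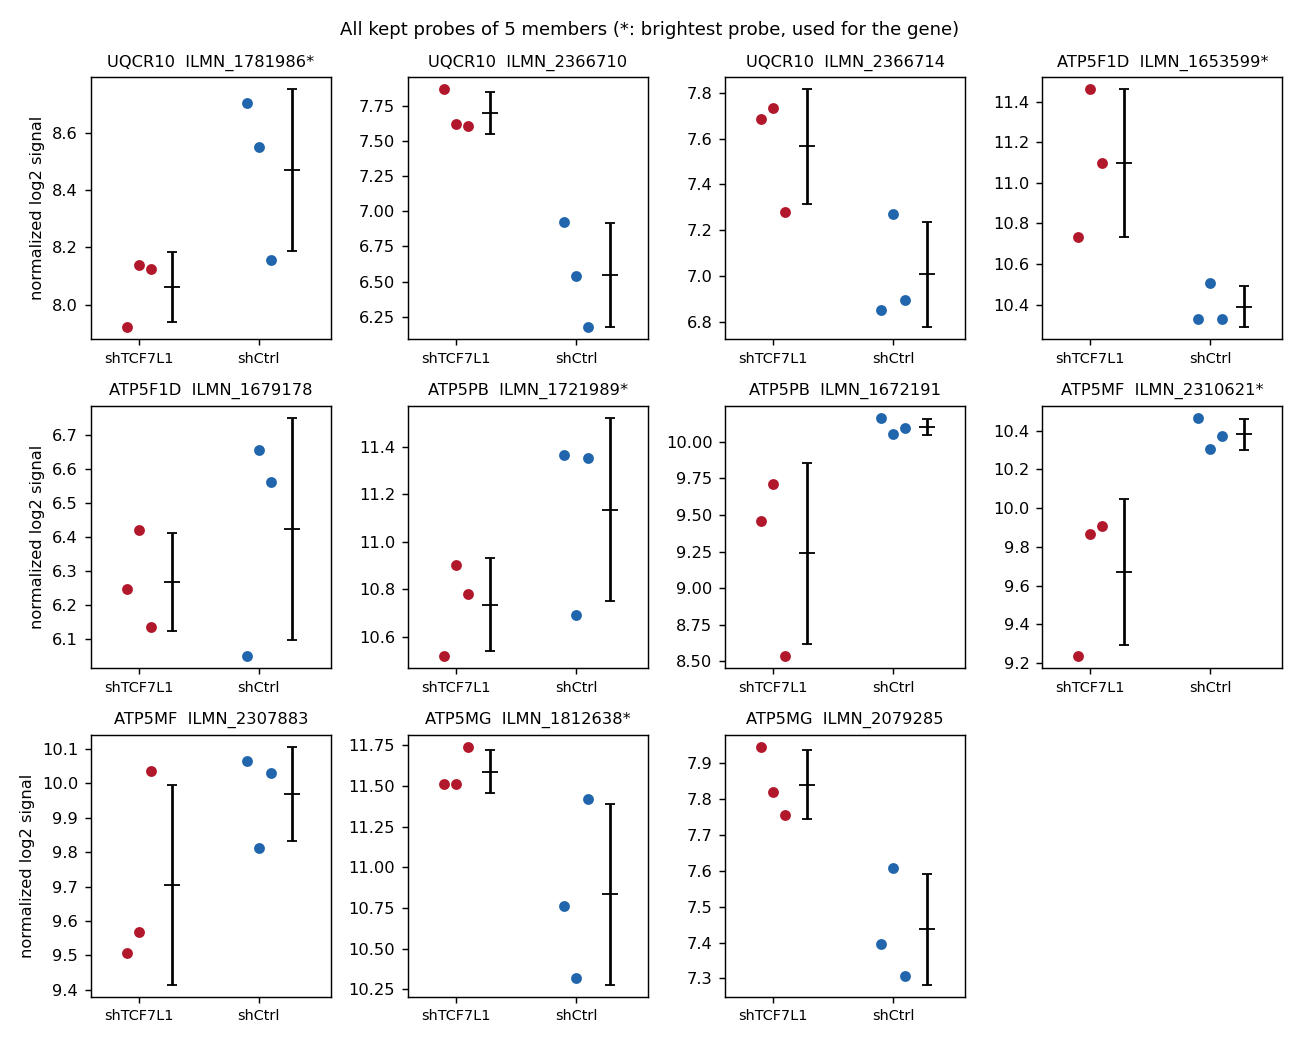
Normalized log2 level (vertical axis) on each array for all kept probes of UQCR10, ATP5F1D, ATP5PB, ATP5MF and ATP5MG, with shTCF7L1 left of shCtrl, bars for the mean and SD, and a star at the brightest probe. The brightest UQCR10 probe is lower in shTCF7L1 cells and its other 2 probes are higher, and of the ATP5F1D probes only the brighter one is higher.

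The promoters of called genes are printed because many genes of the respiratory chain are known to be controlled by nuclear respiratory factor 1 (NRF1), by GABP of the ETS family and by YY1. Windows of 300 bases, from 250 before to 50 after the annotated start, came from RefSeq on assembly GRCh38.p14, and 36 of the 46 listed genes had an entry. Among the called genes UQCR11 (chr19:1605413-1605712, minus strand), COX5B (chr2:97645812-97646111, plus strand), COX15 (chr10:99732078-99732377, minus strand) and COX17 (chr3:119677357-119677656, minus strand) had one, and ATP5F1D and ATP5MF did not. Each is written 5′ to 3′ on the gene's strand, with capitals for the NRF1 core GCATGCG, the ETS core CCGGAAG and the YY1 core GATGGCG on either strand.
UQCR11: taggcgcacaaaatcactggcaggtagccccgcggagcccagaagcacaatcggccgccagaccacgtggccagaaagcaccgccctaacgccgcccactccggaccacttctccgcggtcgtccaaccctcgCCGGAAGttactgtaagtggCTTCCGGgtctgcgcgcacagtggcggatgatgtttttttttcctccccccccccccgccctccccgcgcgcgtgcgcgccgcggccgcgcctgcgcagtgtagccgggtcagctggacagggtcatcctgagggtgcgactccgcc
COX5B: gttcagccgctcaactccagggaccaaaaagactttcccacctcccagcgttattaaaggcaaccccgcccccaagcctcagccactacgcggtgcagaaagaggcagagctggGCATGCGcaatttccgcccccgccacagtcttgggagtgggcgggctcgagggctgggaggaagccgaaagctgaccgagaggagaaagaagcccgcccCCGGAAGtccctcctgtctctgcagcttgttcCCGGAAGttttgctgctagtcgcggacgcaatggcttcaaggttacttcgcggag
COX15: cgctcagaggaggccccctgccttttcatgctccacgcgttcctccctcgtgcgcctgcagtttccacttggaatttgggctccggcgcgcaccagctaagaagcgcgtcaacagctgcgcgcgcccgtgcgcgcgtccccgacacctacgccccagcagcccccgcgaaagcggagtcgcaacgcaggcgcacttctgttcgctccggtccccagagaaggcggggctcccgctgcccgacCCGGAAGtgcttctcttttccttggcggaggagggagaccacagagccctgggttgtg
COX17: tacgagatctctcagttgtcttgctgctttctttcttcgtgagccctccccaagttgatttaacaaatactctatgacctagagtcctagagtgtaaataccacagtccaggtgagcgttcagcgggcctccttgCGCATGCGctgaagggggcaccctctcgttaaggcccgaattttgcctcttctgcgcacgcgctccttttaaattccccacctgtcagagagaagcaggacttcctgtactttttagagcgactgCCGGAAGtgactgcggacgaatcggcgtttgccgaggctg

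All 4 printed windows held the ETS core: it occurred 2 times in UQCR11, 2 times in COX5B, 1 time in COX15 and 1 time in COX17. The NRF1 core occurred 1 time in COX5B and 2 times in COX17, where the matches on the opposite strands overlap, and the YY1 core in none of the 4. Over the 36 genes with an entry, the ETS core was in 19 (52.8%), the NRF1 core in 10 (27.8%) and the YY1 core in 6 (16.7%), and at least 1 of the cores was in 23. Counted in the same way, by the first promoter of each gene, the shares were 10.7%, 4.13% and 4.35% over 27305 genes, which include non-coding genes. COX5B and COX17 were among 7 genes that held both the NRF1 and the ETS core, with ATP5ME, ATP5PF, COX6A1, SDHB and SDHD. Of these, SDHD, COX6A1, ATP5ME and ATP5PF were not called, at log2 differences of -0.16, 0.09, 0.05 and -0.10, so genes with the same cores were found on both sides of the threshold. A match is only a stretch of letters and shows no binding.

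Genes of the same complexes outside the list of 46 were also mostly not called, and those called were lower, where 15% of all genes were called and 7.11% called lower. Of 6 such subunits and isoforms tested, 1 was lower and none higher in shTCF7L1 cells: ATP5MK, a small subunit of complex V, fell by 0.89 on the log2 scale (adjusted p = 0.0122), without passing when shTCF7L1 replicate 2 was left out (0.0603). Of 32 other assembly factors, 2 were lower and none higher (6.25% called, median -0.06). CMC1, an assembly factor of complex IV, was at 6.85 ± 0.13 in shTCF7L1 cells and 8.28 ± 0.03 in shCtrl cells (SD, n = 3 each), 2.70-fold lower (log2 difference -1.43 ± 0.19 (SE), adjusted p = 0.000202), and kept its call in all 17 alternatives. SDHAF3, an assembly factor of complex II, fell by 0.84 (adjusted p = 0.0199), a call lost without shCtrl replicate 2 (0.0639) or 3 (0.0623) and without shTCF7L1 replicate 2 (0.0525) or 3 (0.0858). Subunits of complex I, the entry point for electrons from NADH, had 2 of 32 called (6.25%), both lower, at a median of -0.21. NDUFB5 fell by 0.93 on the log2 scale, a call lost without shTCF7L1 replicate 1 (adjusted p = 0.0567). NDUFB3 fell by 0.72, a call lost in 8 of 17 alternatives, among them the replicate block (0.0537), the mean of its probes (-0.49, adjusted p = 0.203) and every left-out array except shTCF7L1 replicate 1 (up to 0.164). The 13 subunits encoded by the mitochondrial genome were not analysed here.

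Among mitochondrial biogenesis regulators, import genes and tricarboxylic acid cycle enzymes the share of called genes was near the 15% of all genes. Of 16 transcription and biogenesis regulators 2 were higher and 1 lower in shTCF7L1 cells (18.8% called, median -0.01). PPRC1, a coactivator related to PGC-1, rose by 0.83 on the log2 scale (adjusted p = 0.0236), a call lost without shCtrl replicate 2 (0.114) and without shTCF7L1 replicate 2 (0.0717) or 3 (0.0652). POLG, the mitochondrial DNA polymerase, rose by 0.75 (adjusted p = 0.0416), but by 0.47 without shCtrl replicate 3 (0.185), and missed the threshold without any 1 shTCF7L1 array (0.0645 to 0.116). TFAM, which packages and transcribes mitochondrial DNA, fell by 0.69 (adjusted p = 0.0440), a call lost without shCtrl replicate 2 (0.0757) or 3 (0.173) and without shTCF7L1 replicate 1 (0.151) or 3 (0.0859). Of 20 import and outer membrane genes 2 were lower and none higher (10% called). The import receptor TOMM20 fell by 0.81 (adjusted p = 0.0102) and kept its call in all 17 alternatives. TOMM22, the receptor's partner in the same complex, fell by 0.74 (adjusted p = 0.0252), a call that held without shTCF7L1 replicate 3 but was lost without any other 1 array (adjusted p up to 0.103).

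Of 12 tricarboxylic acid cycle enzymes, which share complex II with the chain, 1 was higher and 1 lower in shTCF7L1 cells (16.7% called, median 0.17). They are subunits of one enzyme, the NAD-dependent isocitrate dehydrogenase. IDH3G rose by 0.75 on the log2 scale (adjusted p = 0.0168), a call lost without shTCF7L1 replicate 1 (0.0532) or 3 (0.0525). IDH3A fell by 0.83 (adjusted p = 0.0203), a call lost without shCtrl replicate 2 (0.0641) or 3 (0.0804) and without shTCF7L1 replicate 2 (0.0944). Of 7 regulators of respiration known to respond to low oxygen, 3 were lower and 1 higher (57.1% called). Of all genes tested 15% were called, 7.11% lower and 7.85% higher. This short list was chosen with earlier results of these data known, so its share is descriptive only. HIGD1A, a small protein associated with complexes III and IV, was at 9.23 ± 0.35 in shTCF7L1 cells and 10.73 ± 0.04 in shCtrl cells (SD, n = 3 each), 2.84-fold lower (adjusted p = 0.000298). The mitophagy receptors BNIP3 and BNIP3L fell by 3.22 and 1.10 on the log2 scale (adjusted p of BNIP3L 0.00349), and these 3 genes kept their calls in all 17 alternatives. HIGD2A, a relative of HIGD1A that also binds complex IV, rose by 0.81 (adjusted p = 0.0173), a call lost without shCtrl replicate 2 (0.0833) or shTCF7L1 replicate 2 (0.0638).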

How the data were processed

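Total RNA was made into biotinylated cRNA and hybridised to Illumina BeadChips, per the labels' protocols. The deposited non-normalized table gives an intensity (average bead signal, linear scale) and a detection p-value against negative control beads for each probe and array, per the file headers. GenomeStudio 2011.1 is named in the submitters' processing notes; no settings were found there. The authors' second table of intensities, background-subtracted and scaled to a common mean as its values show, served as an alternative.

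Signals were corrected with normexp (offset 16, control spread from the detection p-values), quantile normalized and logged (log2) by the neqc function of limma 3.58.1 in R 4.3.3. Probes with a detection p below 0.01 on at least 3 of 6 arrays were kept (16835). Names came from the platform annotation, updated through Entrez identifiers with RefSeq (GRCh38.p14). A gene was represented by its brightest kept probe (10470 genes), and other probes by a fit over all kept probes. Groups followed the shRNA label. They were compared with limma (lmFit, eBayes, 2-sided, no block) and Benjamini-Hochberg adjustment, at 0.05. Intervals are 95% intervals from the fit. The script was tested on simulated data. There it called 2% of genes with a true absolute log2 difference of 0.5, 42% at 1 and 84% at 1.5. A gene that was not called may still differ. The number of arrays limits the precision, and 3 against 3 arrays cannot give an exact permutation p below 0.1.

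All listed genes are named. Genes of other lists are named only if called, up to 4 a list, except the cell type markers, which are named whether called or not. Values per array are given for called genes, complex II, cytochrome c, the c-ring and the extremes of each group. UQCRC2, ATP5F1B and ATP5PO are given per array beyond that rule, chosen after their values were seen. The members and lists were chosen with earlier results of these data known. The alternatives covered background, normalization, filter, probe rule, variance model, replicate block and left-out arrays.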

Additional observations from a re-analysis of the deposited data

How the results depend on the processing

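All 17 alternatives kept the direction of the 6 called genes. The count of 6 called members became 0 in limma with no detection filter, where 1115 of 20043 genes passed and 10 members had an unadjusted p below 0.05. Leaving out 1 array gave 1 to 4 called members and 1007 to 1156 called genes of all those tested, and the other alternatives gave 4 to 7. Without shCtrl replicate 1 only UQCR11 was called. Median scaling gave medians of -0.35 for complex IV subunits and -0.25 for complex V, and no higher member. Leaving out 1 array moved the median of complex III between -0.31 and 0.075 and that of complex V between -0.093 and 0.0080. The replicate block gave 7 called members. A correlation between same-numbered arrays, on another scale than the whole-array correlations given above, was -0.01 in each of the 3 pairs. No array correlated best with its own number. Values near 0 over 3 pairs cannot decide whether the numbers pair the samples. With the authors' values, calls over all genes were 1152 higher and 558 lower, against 822 and 744. Probes near background have compressed differences: an offset of 50 gave -0.68 for UQCR11. The causes of these changes were not tested.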
